A study of Arabidopsis thaliana with 12 samples.

Results

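GSTU20 (AT1G78370) and GSTU25 (AT1G17180) encode glutathione transferases of the tau class, and their transcripts were followed in root tips of Arabidopsis thaliana given the auxin precursor indole-3-butyric acid (IBA). Each gene was read by 1 probe set that names no other gene, so they account for 2 of the 13513 probe sets that name 1 gene and for 2 of the 22746 tested. Both were chosen on their log2 values in all 4 groups of the study, GSTU20 because its change on IBA depended on genotype and GSTU25 because it was higher on IBA in both genotypes. Their levels and changes are therefore given as a description with no test, and tests are given for other genes alone.

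Glutathione transferases join the tripeptide glutathione to electrophilic compounds, which marks them for transport into the vacuole. The tau class is found in plants, is a large family in Arabidopsis, and many of its genes lie in tandem rows that arose by duplication. GSTU20 is known as a partner of the jasmonate-conjugating enzyme FIN219/JAR1 in far-red light signalling and has been linked to aliphatic glucosinolates. GSTU25 is known for transcripts that respond to xenobiotics and for activity on the explosive trinitrotoluene. Peroxisomal enzymes that include IBR1, IBR3 and IBR10 turn IBA into indole-3-acetic acid (IAA), the auxin that cells perceive.

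The material was primary root tip segments of about 4 mm from seedlings 3 days after germination. The wild type was accession Col-0 and the mutant was the triple mutant ibr1ibr3ibr10. Both were moved for 6 h to medium with DMSO, the solvent control, or with 10 µM IBA. Each of the 4 groups held 3 arrays, which the labels describe as independent biological replicates, each a pool of at least 120 root tips, so differences between single roots or cell types within a tip are averaged. The deposited values were log2 expression values made with RMA, and ran from 1.401 to 13.44.

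GSTU20 had its lowest level in the mutant on IBA and its highest in Col-0 on IBA. In Col-0 on DMSO its log2 values were 5.63, 5.27 and 5.62 in replicates 1, 2 and 3, and in Col-0 on IBA they were 6.02, 6.29 and 6.25. All 3 IBA arrays of Col-0 lay above all 3 DMSO arrays. In the mutant on DMSO the log2 values were 5.25, 5.225 and 5.275, and on IBA they were 3.84, 4.42 and 4.34. All 3 IBA arrays of the mutant lay below every other array, with replicate 1 the lowest. The group means were 5.51 ± 0.20 for Col-0 on DMSO, 6.19 ± 0.14 for Col-0 on IBA, 5.25 ± 0.025 for the mutant on DMSO and 4.20 ± 0.31 for the mutant on IBA (SD, n = 3 each).

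On IBA, GSTU20 was thus higher by 0.68 log2 units in Col-0 (SE 0.14, 1.6-fold) and changed by -1.05 in the mutant (SE 0.14, 2.07-fold lower). The mutant change minus the Col-0 change was -1.73 (SE 0.20). As a place among all 22746 probe sets, 996 had a higher change in Col-0, 41 a more negative change in the mutant and 90 a more negative difference of changes. Between genotypes the gap was small on DMSO, at -0.26 (SE 0.14), where the arrays of both groups overlapped. On IBA the mutant was 3.95-fold lower (log2 difference -1.98, SE 0.14), with no overlap, and 62 probe sets had a more negative difference. In order of level the mutant on IBA came first, then the mutant on DMSO and Col-0 on DMSO, which did not separate beyond their spread, then Col-0 on IBA.

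GSTU25 was higher on IBA in both genotypes and also higher in the mutant on either medium. Its log2 values in Col-0 were 10.62, 10.54 and 10.61 on DMSO, and 11.24, 11.19 and 11.23 on IBA. Those of the mutant were 11.03, 11.03 and 10.91 on DMSO, and 11.58, 11.51 and 11.56 on IBA. No array of 1 group lay within the range of another, and the groups ran from Col-0 on DMSO through the mutant on DMSO and Col-0 on IBA to the mutant on IBA. The means were 10.59 ± 0.041, 10.99 ± 0.069, 11.22 ± 0.024 and 11.55 ± 0.036 in that order (SD, n = 3 each). Groups of 3 arrays can also lie apart where a gene is not called, as for GSTU27 and GSTU15 on the 2 media in the mutant. The share of all probe sets that separate this way is not given here, so for GSTU20 and GSTU25 it is a description.

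The change of GSTU25 on IBA was 0.63 in Col-0 (SE 0.066, 1.55-fold) and 0.56 in the mutant (SE 0.066, 1.47-fold). These changes differed by -0.07 (SE 0.094, with a 95% interval from -0.27 to 0.13). The mutant exceeded Col-0 by 0.40 on DMSO and by 0.33 on IBA (SE 0.066 each). The step between genotypes on DMSO was thus smaller than the step on IBA within either genotype. In Col-0 1113 probe sets had a higher change, in the mutant 576 did, and for the mutant level on DMSO 586 had a higher difference.

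Set against each other within an array, the genes kept 1 ratio in Col-0 and parted in the mutant. The log2 ratio of GSTU20 to GSTU25, relative to its mean in Col-0 on DMSO, was 0.05 ± 0.16 in Col-0 on IBA, against an SD of 0.16 among the Col-0 DMSO arrays. In the mutant it was -0.66 ± 0.091 on DMSO, between -0.72 and -0.55 on the single arrays. On IBA it was -2.26 ± 0.34 (SD, n = 3), with -2.65 on the lowest array, a ratio 4.79-fold below that of Col-0 on DMSO. The scaling of an array cancels in this ratio, which shows unequal change and not which of the genes changed. Over the 12 arrays the log2 values of GSTU20 and GSTU25 correlated at r = -0.48, and at r = -0.14 once group means were removed, as a description of arrays that share 4 groups.

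**Figure D1:**
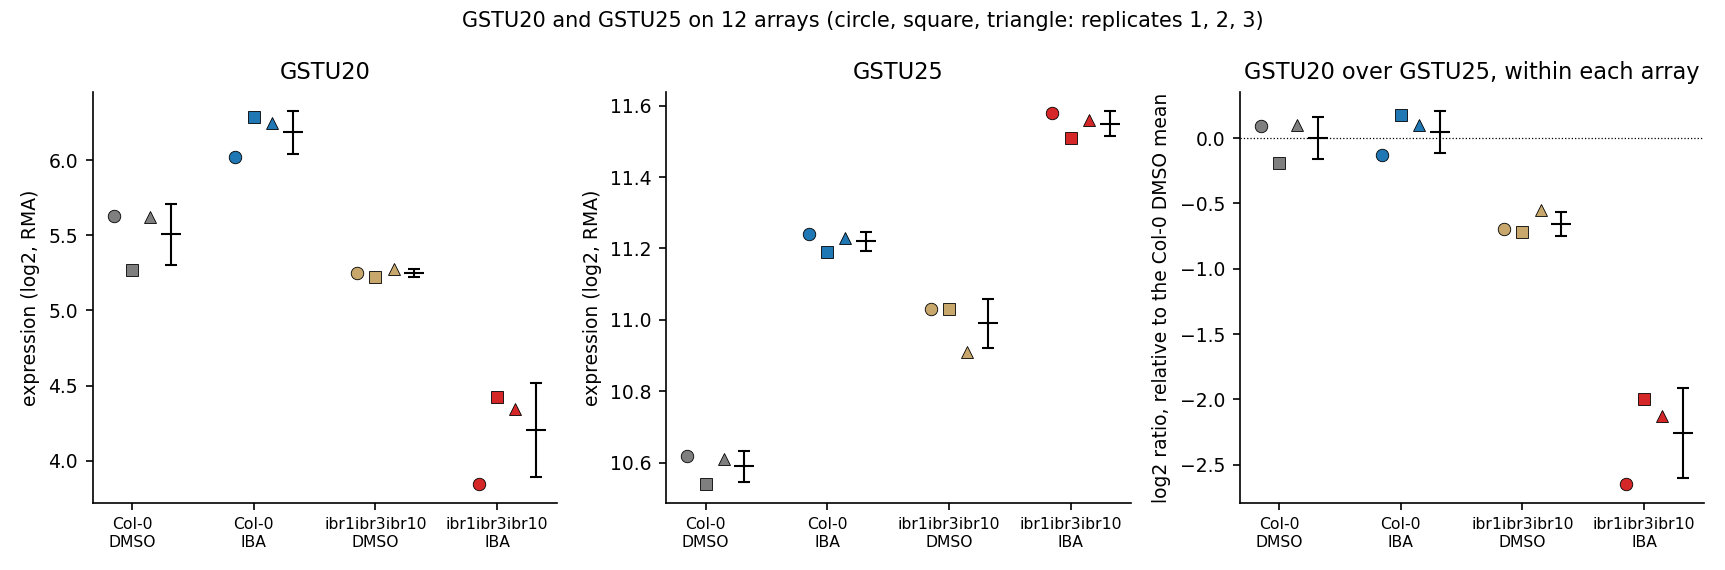
Log2 expression of GSTU20 (left) and GSTU25 (middle) and their within-array log2 ratio relative to the Col-0 DMSO mean (right), for each of the 12 arrays by genotype and medium; bars beside the points give the mean ± SD of 3 arrays, and the vertical scales differ between panels. GSTU20 is lowest in the mutant on IBA, from 3.84 to 4.42, while GSTU25 is highest there, from 11.51 to 11.58, and the ratio is near 0 in both Col-0 groups.

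The levels are relative to the arrays' common scale, and that scale bears on the Col-0 values. Bacterial control transcripts had been added to equal amounts of total RNA, and the mean log2 signal of their 24 probe sets was 4.96 to 5.51 on the Col-0 IBA arrays and 4.76 to 5.03 on the others. With each array scaled to those controls, the Col-0 change fell to 0.24 for GSTU20 (SE 0.17) and 0.19 for GSTU25 (SE 0.17), while the mutant changes were -0.95 and 0.66. The difference of changes was then -1.19 for GSTU20 and turned from -0.07 to 0.47 for GSTU25 (SE 0.24). That scaling moved the median change of all probe sets by -0.44 in Col-0 and by 0.097 in the mutant, so relative to the median both genes keep the changes given above. Across probe sets, arrays of the same group had correlations from 0.995 to 0.998, and no pair of arrays was identical.

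Markers of other tissues moved with the groups as well. The measured green shoot markers, 2 of 26 listed, were RCA, which activates Rubisco, and the light-harvesting protein gene LHCB4.1. On the log2 scale their summed level ran from 5.735 to 6.01 in Col-0 on DMSO, 6.835 to 6.96 in Col-0 on IBA, 6.27 to 6.43 in the mutant on DMSO and 6.75 to 7.06 in the mutant on IBA, which is the order of groups seen for GSTU25 except that both IBA groups overlapped. Taken singly, RCA had that order of means and LHCB4.1 did not. The mean of LHCB4.1 was 5.25 in the mutant on IBA and 5.48 in Col-0 on IBA. Its genotype differences were 0.18 on DMSO (limma adjusted p = 0.474) and -0.23 on IBA (adjusted p = 0.198). The measured root hair markers, 2 of 7 listed, were the expansin genes EXPA7 and EXPA18. Their summed level was 9.44 to 9.58 and 9.56 to 9.70 in Col-0 on DMSO and IBA, and 9.13 to 9.27 and 8.78 to 8.83 in the mutant, so the mutant on IBA was lowest, as for GSTU20. EXPA18 fell in the mutant by 0.60 (limma adjusted p = 0.000793) and its responses differed by -0.85 (adjusted p = 0.000855). EXPA7 was at -0.14 in Col-0 (adjusted p = 0.185) and fell in the mutant by 0.26 (adjusted p = 0.0389), and its responses differed by -0.12 (adjusted p = 0.614). No marker was listed at 0. Of the root markers 1 of 13 was measured, PYK10. It ran from 11.54 to 11.84 in Col-0 on DMSO and from 12.03 to 12.33 in Col-0 on IBA. In the mutant it ran from 12.04 to 12.19 on DMSO and from 12.25 to 12.33 on IBA. The PYK10 means had the order of groups seen for GSTU25, though Col-0 on IBA overlapped both mutant groups. Endodermis and root cap had 0 measured markers. The part of these tissues in the GSTU20 and GSTU25 values was not tested, and in whole root tips fewer cells of a type and less RNA per cell cannot be told apart.

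The other glutathione transferases showed how the pair stood within its family. This list and those below were chosen with earlier results of these data known, so their counts beside the background are a description. Of 55 listed names 14 had a probe set of their own, 11 of 28 tau, 2 of 13 phi and 1 of 14 from other classes, and 12 remain without GSTU20 and GSTU25. In Col-0 5 of these 12 rose on IBA and 4 fell (limma, adjusted p under 0.05), where 12.1% of all probe sets rose and 11.4% fell. Their median change was 0.31, and that of all probe sets -0.04. GSTU16, a tau gene, rose most, from 4.51 ± 0.14 to 6.03 ± 0.12 (SD, n = 3), by 1.51 (SE 0.089, adjusted p = 5.34e-08). The phi gene GSTF4 rose by 1.41 (SE 0.20, adjusted p = 0.000137), GSTU22 by 0.81, GSTU23 by 0.63 and the lambda gene GSTL3, whose class is known to act on oxidised or glutathione-bound compounds rather than to conjugate, by 0.45. With scaling to the spiked controls the calls of GSTU22 (0.37, adjusted p = 0.0529), GSTU23 (0.18) and GSTL3 (0.01) ended and GSTU15 passed lower (-0.46, adjusted p = 0.0143), so that 2 of the 12 rose and 5 fell. Of all 22746 probe sets 723 rose and 16287 fell with that scaling, so a fall was the common call there.

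The family members that fell in Col-0 fell by amounts of the same order. GSTU28 went from 9.08 ± 0.090 to 7.93 ± 0.14 (SD, n = 3), or by -1.15 log2 units (SE 0.089, limma adjusted p = 5.54e-07). The phi gene ATGSTF13 fell by 0.88 (adjusted p = 7.97e-06), GSTU26 by 0.70 (adjusted p = 0.000181) and GSTU27 by 0.64 (adjusted p = 0.000172). As deposited, GSTU15, GSTU18 and GSTU21 passed in no comparison. With spike scaling GSTU15 passed in Col-0 (-0.46), on IBA between genotypes (0.57) and for the difference of responses (0.68), and GSTU21 passed on IBA between genotypes (0.44). That scaling moved the median of all probe sets by -0.44, 0.40 and 0.54 in these 3 comparisons. As deposited GSTU15 was at -0.02, 0.16 and 0.14 in them, and GSTU21 at 0.03 on IBA between genotypes. Over 12 arrays GSTU15 and GSTU21 averaged below 3.24, a level under which 30% of probe sets lie. Without Col-0 DMSO replicate 1 or 2, GSTU21 passed in Col-0 at 0.635 and 0.67.

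In the mutant fewer of the 12 moved. GSTU16 rose by 0.70 (SE 0.089, adjusted p = 0.000237) and GSTU22 by 0.63 (SE 0.089, adjusted p = 0.000487), so 2 of 12 rose against a background of 5.49%. GSTU26 was the 1 that fell, by 0.47 (SE 0.10, adjusted p = 0.0104), against 3.87%, and it did not pass without mutant DMSO replicate 3 (-0.38, adjusted p = 0.0534) or with spike scaling (-0.375). The median change of the 12 was 0.125, and that of all probe sets -0.01. Without Col-0 DMSO replicate 3, which enters only through the shared spread, GSTU21 (0.365) and GSTL3 (0.32) passed as well and the count was 5. None of the 12 combined a change above 0 in Col-0 with a call lower in the mutant, the directions of GSTU20. With 3.87% of all probe sets called lower in the mutant, 0 of 12 is near the background. The share with both directions was not counted.

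The difference of responses was tested for the other 12 directly. It was higher in the mutant for 3, against a background of 2.95%, and lower for 2, against 3.54%, with a median of -0.12 where all probe sets had 0.01. GSTU28 differed by 1.01 (SE 0.125, adjusted p = 0.00019), GSTU27 by 0.80 (SE 0.13, adjusted p = 0.00166) and ATGSTF13 by 0.59 (SE 0.13, adjusted p = 0.0121). These are 3 of the 4 genes that fell in Col-0, and their mutant changes were -0.14, 0.17 and -0.29. None of these passed as reported. ATGSTF13 passed when Col-0 IBA replicate 3 was left out (adjusted p = 0.0342), with array weights (adjusted p = 0.0327) and with trended robust eBayes (adjusted p = 0.0257). It also passed with the dimmest 30% of probe sets left out (adjusted p = 0.0384) and with the compared groups alone (adjusted p = 0.0383). GSTF4 differed by -1.28 (SE 0.28, adjusted p = 0.0135) and GSTU16 by -0.82 (SE 0.125, adjusted p = 0.00108), the latter not with spike scaling (-0.28, adjusted p = 0.287). With that scaling GSTU26 (0.77, adjusted p = 0.012) and GSTU15 (0.68, adjusted p = 0.0225) passed as well, so that 5 were higher and 1 was lower. Of all 22746 probe sets 11637 were then higher and 237 lower, so a higher call was common with that scaling. The size for GSTU20, -1.73, exceeded each of the 5 differences called as deposited, a comparison with no test because GSTU20 was chosen on that value.

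**Figure D2:**
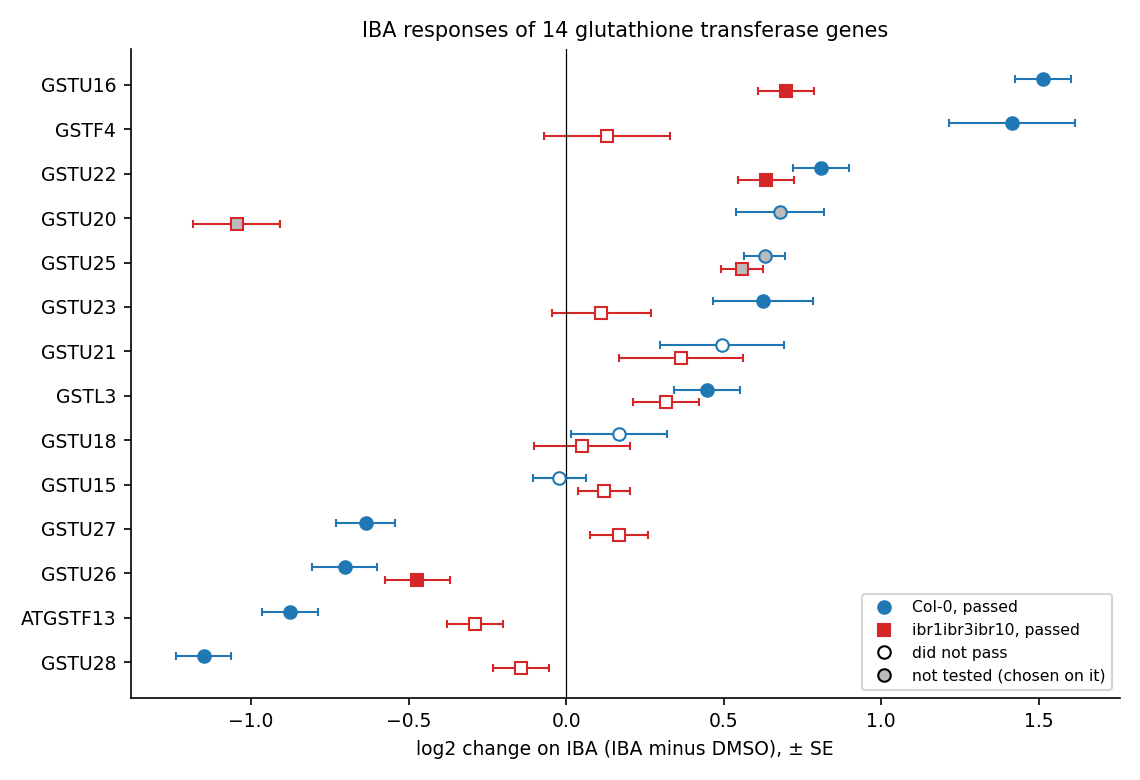
Log2 change on IBA, with its standard error, in Col-0 (circles) and in the mutant (squares) for the 14 measured glutathione transferase genes, ordered by the Col-0 change; filled symbols passed at an adjusted p under 0.05, open ones did not, and grey ones belong to GSTU20 and GSTU25, which were not tested. GSTU20 lies at 0.68 and -1.05, on opposite sides of 0, while GSTU25 lies at 0.63 and 0.56.

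Between genotypes on DMSO 2 of the 12 were higher in the mutant, against a background of 1.82%, and 1 was lower, against 0.602%. GSTU22 was higher by 0.46 (adjusted p = 0.0135), GSTU16 by 0.40 (adjusted p = 0.0276) and ATGSTF13 was at -0.44 (adjusted p = 0.0174). The median of the 12 was 0.01, where all probe sets had -0.02. These calls were fragile: GSTU16 did not pass without Col-0 DMSO replicate 1 or 3 or mutant DMSO replicate 1 or 2 (0.34 to 0.40), GSTU22 not without Col-0 DMSO replicate 3 or mutant DMSO replicate 1 or 2 (0.39 to 0.455), and ATGSTF13 not without Col-0 DMSO replicate 1 or mutant DMSO replicate 1 (-0.37 and -0.405). GSTF4 at 0.73 (adjusted p = 0.0828) missed the threshold and passed without Col-0 IBA replicate 1 (adjusted p = 0.0292).

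On IBA 2 of the 12 were higher in the mutant, against 5.95%, and 1 was lower, against 5.08%. GSTU27 was higher by 0.70 (adjusted p = 0.000132) and GSTU28 by 0.68 (adjusted p = 0.000123), while GSTU16 was lower, at -0.41 (adjusted p = 0.00646), or at -0.01 with spike scaling. The median of the 12 was 0.03, where all probe sets had 0.00076. GSTU22 at 0.28 missed the threshold (adjusted p = 0.0602), and passed without Col-0 IBA replicate 3 (0.36). It also passed with spike scaling (0.685, adjusted p = 0.00245), with trended robust eBayes (adjusted p = 0.00556) and with the dimmest 30% of probe sets left out (adjusted p = 0.0393). GSTF4, at -0.56 (adjusted p = 0.103), passed without Col-0 IBA replicate 1 (-0.79).

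Both genes lie among tandem copies, which lets each be set beside its neighbours. In the gene order of TAIR10.1, GSTU20 is preceded by GSTU21, GSTU22 and GSTU23 and followed by GSTU19, which has no probe set naming it alone here. GSTU22, whose log2 values were 9.70 to 9.73 in Col-0 on DMSO and 10.40 to 10.67 on IBA, was at 10.03 to 10.31 in the mutant on DMSO and at 10.74 to 10.88 on IBA. It rose on IBA in both genotypes, and its responses differed by -0.17 (SE 0.13, adjusted p = 0.518), where GSTU20 changed by -1.05 in the mutant. GSTU21 and GSTU23 had mutant changes of 0.36 (SE 0.20) and 0.11 (SE 0.16), neither of which passed. GSTU23 had a difference of responses of -0.51 (SE 0.22, adjusted p = 0.233), which passed without mutant IBA replicate 3 (-0.705, adjusted p = 0.0449). Probe sets of close copies can share target sequence, and no sequence was compared here.

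GSTU25 lies between GSTU24, which has no probe set naming it alone here, and GSTU26. GSTU26 went the other way: its log2 values were 9.79 to 9.88 in Col-0 on DMSO, 8.97 to 9.37 in Col-0 on IBA, 9.53 to 9.81 in the mutant on DMSO and 9.10 to 9.23 in the mutant on IBA. The fall was seen in both genotypes, by 0.70 and 0.47, and the responses differed by 0.23 (SE 0.15, adjusted p = 0.449). AT1G17160, on the far side of GSTU24, fell in Col-0 by 0.35 (SE 0.078, adjusted p = 0.00422) and was at -0.04 in the mutant. Its difference of responses, 0.32 (adjusted p = 0.122), passed without mutant IBA replicate 2 (0.39, adjusted p = 0.0472), as did its difference between genotypes on IBA (0.28, adjusted p = 0.0399).

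**Figure D3:**
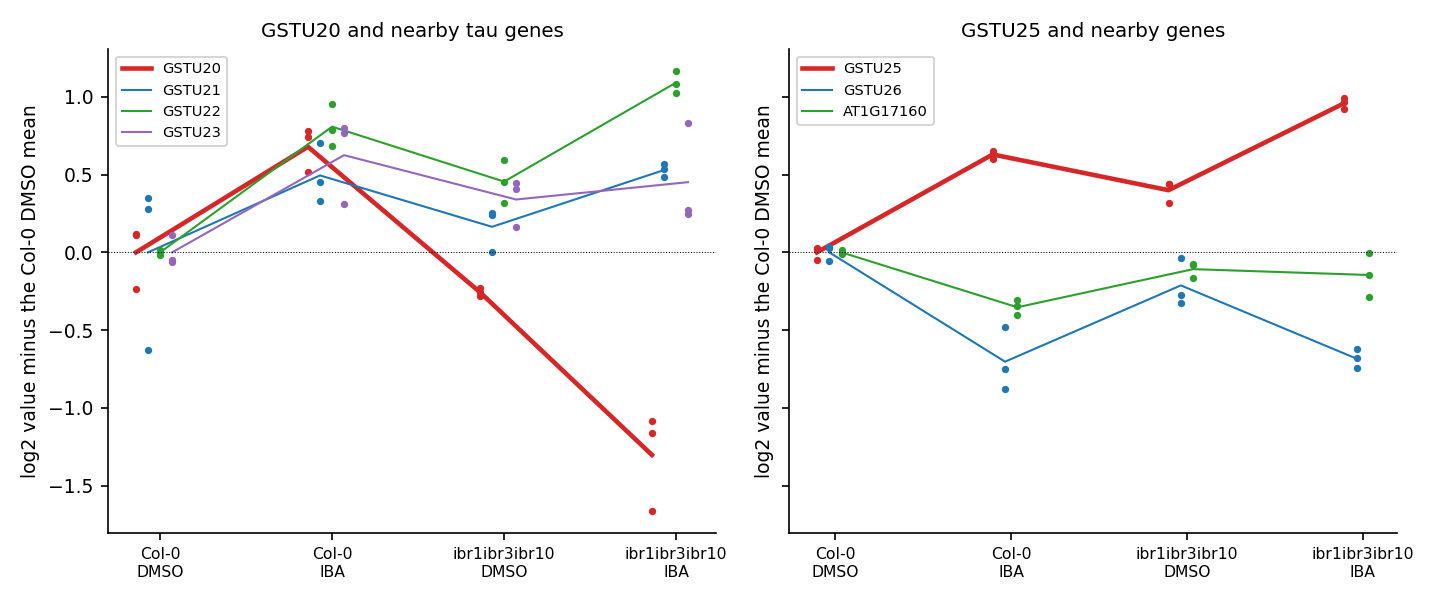
Log2 values of GSTU20 with the nearby tau genes GSTU21, GSTU22 and GSTU23 (left) and of GSTU25 with GSTU26 and AT1G17160 (right), each minus its own mean in Col-0 on DMSO; points are the 3 arrays of a group, and lines join group means. GSTU22 is above 0 in every other group while GSTU20 falls below it in the mutant, and GSTU26 lies below 0 in the groups where GSTU25 lies above it.

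The genes whose levels ran most like each member were found among the 13512 other probe sets that name 1 gene, by Pearson's r over the 12 arrays. For GSTU20 they were AT1G33700 (r = 0.985), AT5G05840 (r = 0.985), AT5G19800, listed as hydroxyproline-rich glycoprotein 2 (r = 0.983), AT5G04960 (r = 0.974) and AT4G25790 (r = 0.973). With group means removed, so that only the scatter among replicates counts, their r with GSTU20 was 0.91, 0.87, 0.77, 0.62 and 0.93. In all 5, as in GSTU20, mutant IBA replicate 1 was the lowest array: AT4G25790 was at 5.02 there and at 5.71 and 5.66 on the other mutant IBA arrays. Their changes on IBA lay between 0.42 and 0.58 in Col-0 and between -1.67 and -0.92 in the mutant. On DMSO these genes stood lower in the mutant, from -0.86 to -0.44, where GSTU20 was at -0.26.

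For GSTU25 the nearest were SUFE2, an activator of iron-sulfur cluster assembly (r = 0.985), GSTU22 (r = 0.983), AT4G38540 (r = 0.982), AT4G24160 (r = 0.981) and AT1G17860 (r = 0.98). GSTU22, which lies in the row of GSTU20, was thus among the 5 genes closest to GSTU25. With group means removed the r values were 0.48, 0.66, 0.40, -0.0073 and 0.28. For these genes the likeness rests on the 4 group means more than on the scatter among replicates. Their changes on IBA were 0.51 to 1.04 in Col-0 and 0.41 to 0.88 in the mutant, and 0.29 to 0.65 between genotypes on DMSO. These genes were picked by likeness, so their values are a description; the 12 points share 4 groups and 1 normalization, and the sixth genes followed at r = 0.972 for GSTU20 and r = 0.979 for GSTU25.

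**Figure D4:**
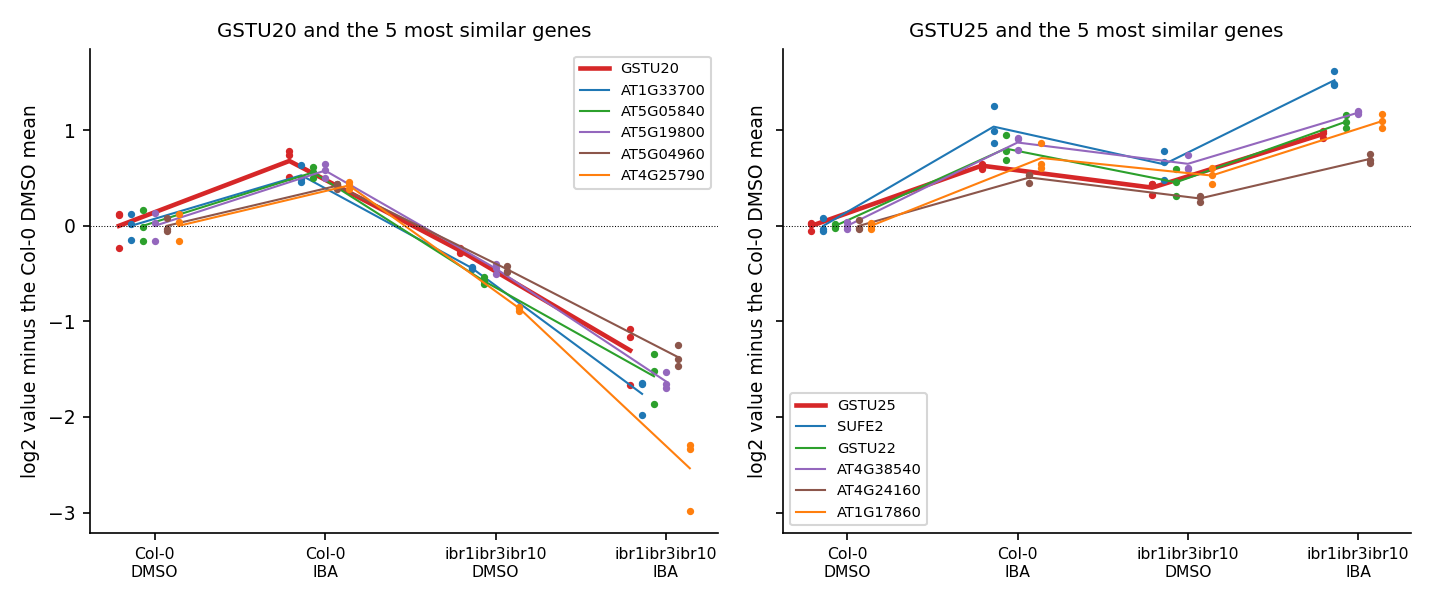
Log2 values, minus each gene's mean in Col-0 on DMSO, of GSTU20 with the 5 genes of highest correlation (left) and GSTU25 with its 5 (right); points are the 3 arrays of a group and lines join group means. The left group peaks in Col-0 on IBA and is lowest in the mutant on IBA, and the right group is higher in both IBA groups and in the mutant on DMSO than in Col-0 on DMSO.

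Genes of chemical detoxification, the wider system in which tau transferases act, were mostly higher on IBA. This list, too, was chosen with earlier results of these data known. Of 11 measured from 41 listed, 8 rose and 0 fell in Col-0, where 12.1% of all probe sets rose and 11.4% fell, with a median change of 0.66. In the mutant 8 rose and 0 fell, where 5.49% and 3.87% of all did, with a median of 0.44. AER, which reduces reactive aldehydes, rose by 2.04 in Col-0 (SE 0.125, adjusted p = 7.78e-08) and by 1.45 in the mutant (SE 0.125, adjusted p = 1.1e-05). The glycosyltransferase genes UGT73B1, UGT73B5 and UGT73B4 rose by 1.75, 0.86 and 0.84 in Col-0 and by 1.03, 0.69 and 0.62 in the mutant, beside 0.63 and 0.56 for GSTU25. The responses differed for 1 of the 11, where 2.95% of all probe sets were higher in the mutant and 3.54% lower. This was UGT73B1, at -0.72 (SE 0.14, adjusted p = 0.00515), or -0.18 with spike scaling (adjusted p = 0.498). AER at -0.60 missed the threshold (adjusted p = 0.0649) and passed without Col-0 IBA replicate 1 (-0.70) or mutant DMSO replicate 3 (-0.72).

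Between genotypes, 3 of these 11 were higher in the mutant on DMSO and 0 lower, where 1.82% and 0.602% of all probe sets were, with a median of 0.30. UGT73B1 was higher by 0.61 (adjusted p = 0.00332) and UGT73B4 by 0.54 (adjusted p = 0.00326), beside 0.40 for GSTU25. With spike scaling neither passed (0.47, adjusted p = 0.315, and 0.41, adjusted p = 0.419). On IBA 2 were higher and 1 was lower, where 5.95% and 5.08% of all were, with a median of 0.01. UGT73B4 was higher by 0.32 (adjusted p = 0.0249), which did not pass without either of Col-0 IBA replicates 1 and 2 or mutant IBA replicates 2 and 3 (0.26 to 0.33).

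Few genes of glutathione supply and the ascorbate cycle were measured. GR1, a glutathione reductase that returns oxidised glutathione to its reduced form, rose by 0.58 in Col-0 (SE 0.077, adjusted p = 7.98e-05) and by 0.34 in the mutant (SE 0.077, adjusted p = 0.0133). The mutant call was lost without mutant DMSO replicate 3 (0.28) or mutant IBA replicate 3 (0.32), and both calls with spike scaling (0.14 and 0.435). GR, the plastid form and the other of 2 measured genes from 18 listed, had no call as deposited or with spike scaling. Of 3 measured genes of glutathione peroxidases and the ascorbate cycle, from 25 listed, TAPX, the thylakoid ascorbate peroxidase gene, fell in Col-0 by 0.44 (SE 0.12, adjusted p = 0.0182), though not without Col-0 DMSO replicate 2 (-0.38) or Col-0 IBA replicate 1 (-0.33). SAPX and ATMDAR2 passed nowhere as deposited, and their Col-0 changes turned from 0.04 and 0.08 to -0.405 and -0.36 with spike scaling.

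Because GSTU20 has been linked to glucosinolates, those lists were examined, with few genes measured. Of 3 aliphatic genes from 29 listed, AOP1, of the side-chain-modifying AOP family, fell in Col-0 by 0.59 (SE 0.15, adjusted p = 0.0101), and BCAT4 and AOP3 had no call as deposited. With spike scaling both passed in Col-0 (-0.58, adjusted p = 0.00464, and -0.44, adjusted p = 0.0191). That scaling moved the median of all probe sets in Col-0 by -0.44, and AOP3 was at -0.0012 as deposited. Both genes were dim, with group means of 2.91 to 3.13 for BCAT4 and 2.43 to 2.53 for AOP3, where 30% of probe sets lie under 3.24. Of 2 indolic genes from 20 listed, PYK10, a beta-glucosidase of root endoplasmic reticulum bodies, rose in Col-0 by 0.50 (SE 0.10, adjusted p = 0.00199) and not with spike scaling (0.061). UGT74B1 had no call as deposited and passed in Col-0 with spike scaling (-0.56, adjusted p = 0.00382). Of 2 regulators from 16 listed, MYC4 fell in Col-0 by 0.40 (SE 0.12, adjusted p = 0.0234) and was higher in the mutant on IBA by 0.50 (adjusted p = 0.011), while MYC3 had no call as deposited and passed between genotypes on IBA with spike scaling (0.55, adjusted p = 0.0106). In that comparison the scaling moved the median of all probe sets by 0.40, and MYC3 was at 0.15 as deposited. The Col-0 call of MYC4 ended on leaving out Col-0 DMSO replicate 1 (-0.40) or 2 (-0.31), or replicate 1 of Col-0 on IBA (-0.31), and the genotype call without Col-0 IBA replicate 1 or mutant IBA replicate 2 (0.41 and 0.39). In the mutant 0 of these 7 genes passed on IBA by limma, where 5.49% of all probe sets rose and 3.87% fell, and 1 did at an unadjusted p under 0.05. UGT74B1 passed there when mutant IBA replicate 2 was left out (-0.41, adjusted p = 0.0405). FIN219/JAR1 and jasmonate, TGA factors and ABCC transporters had no probe set of their own among those listed and were not analysed here.

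Auxin response genes were set beside GSTU20 as a reference, in a list also chosen with earlier results of these data known. Of 7 measured from 22 listed, 6 rose in Col-0 and 0 fell, against 12.1% and 11.4% of all probe sets, with a median of 1.32. In the mutant 0 rose and 4 fell, against 5.49% and 3.87%, with a median of -0.45. The responses were lower in the mutant for all 7, against 3.54%, with a median of -1.88. WES1, an enzyme that joins IAA to amino acids, increased by 2.33 in Col-0 (SE 0.11, adjusted p = 1.28e-08) and decreased by 1.105 in the mutant (SE 0.11, adjusted p = 2.86e-05). LBD16, which acts as a regulator at the start of lateral roots, rose by 1.47 in Col-0 and fell by 0.77 in the mutant (SE 0.10, adjusted p = 0.000378). GH3.3 and GH3.1, of the same family as WES1, rose in Col-0 by 5.31 and 1.31 and in the mutant were at -0.41 (adjusted p = 0.174) and -0.10 (adjusted p = 0.667), so not every gene of the list was called lower there. GH3.3 passed in the mutant when replicate 3 of Col-0 on IBA was left out (adjusted p = 0.0251). Beside these, GSTU20 was at 0.68 and -1.05. On DMSO 0 of the 7 differed between genotypes by limma, with 1 at an unadjusted p under 0.05. There 1.82% of all probe sets were higher in the mutant and 0.602% lower, so 0 of 7 is near the background. On IBA 7 were lower in the mutant, against 5.08%, with a median of -2.09.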

How the data were processed

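Log2 expression values of 12 arrays were deposited by the authors, and RMA with affy 1.40.0 was used, per the submitters' processing notes; the method corrects background, equalises the arrays' distributions and summarises probes, so changes are relative to the bulk of transcripts. The set of arrays that RMA took together was not given in the sources used here. The labels' protocols describe amplification of 100 ng of total RNA with added bacterial control transcripts. Titles shorten the mutant to ibr3 and give 0 h for DMSO; the other labels give the triple mutant and 6 h, which were used.

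Of 22810 probe sets 64 controls were left out; of the 22746 tested, 13513 name 1 gene, 503 several and 8730 none, and no gene was named from several. Symbols and gene order, but no coordinates, came from RefSeq's TAIR10.1 annotation. Under R 4.3.3, limma 3.58.1 fitted the 4 group means to all 12 arrays (lmFit, contrasts.fit and eBayes, with 8 residual degrees of freedom and 5.62 prior ones), two-sided, with Benjamini-Hochberg adjustment over all probe sets within a comparison; adjusted p under 0.05 was called. No filter on low values was applied. Over the 12 arrays GSTU20 averaged 5.287 and GSTU25 11.09, both above the 3.24 under which 30% of probe sets lie. Arrays have no read depth, and 3 per group limit the precision. The steps were tested on simulated data.

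GSTU20, GSTU25 and the gene lists were chosen with earlier results of these data known. Named were all measured tau genes, genes of other transferase classes with a call, up to 4 genes per list with the smallest p, genes within 2 places of a member, and the 5 genes most like each by Pearson's r; GSTU23, 3 places away, is named as a tau gene. Same-numbered replicates deviated together in 2 of 18 pairs (r over 0.1; range -0.21 to 0.165), so the numbers were not taken to pair samples. Tried as alternatives were array weights, median centring, scaling to 24 spiked control probe sets, quantile normalization, a replicate block, trended robust eBayes, a fit of only the groups compared, 1 probe set per gene, the dimmest 30% left out, adjusted p under 0.01, and each array left out.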

Additional observations from a re-analysis of the deposited data

Results flagged for a closer look

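For the genes here the response to IBA differed between genotypes, as the mutant change minus the Col-0 change in log2 units. GSTU20 differed by -1.73 (SE 0.20), with all 3 arrays higher on IBA in Col-0 and all 3 lower in the mutant. This was not tested, because GSTU20 was chosen on it. The share of all probe sets whose arrays separate this way is not given, so the separation is a description. The other values passed the limma test of the difference itself. Among transferases these were GSTU27 at 0.805 (adjusted p = 0.00166), GSTU28 at 1.01 (adjusted p = 0.00019), GSTU16 at -0.816 (adjusted p = 0.00108), ATGSTF13 at 0.588 (adjusted p = 0.0121) and GSTF4 at -1.28 (adjusted p = 0.0135). In the detoxification list UGT73B1 differed by -0.716 (adjusted p = 0.00515). Of the auxin reference genes WES1 differed by -3.43 (adjusted p = 1.76e-08), GH3.3 by -5.72 (adjusted p = 1.5e-08), LBD16 by -2.24 (adjusted p = 7.33e-07) and GH3.1 by -1.41 (adjusted p = 8.73e-05). Groups of 3 arrays were not tested for outlying samples.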

How the results depend on the processing

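Scaling each array to the spiked controls moved the results most. GSTU20 then had a change of 0.238 in Col-0, a difference of responses of -1.19 and a genotype difference on IBA of -1.58. GSTU25 had 0.189 in Col-0, 0.656 in the mutant, 0.467 for the difference of responses, and 0.265 and 0.732 between genotypes on DMSO and IBA. Of the 12 other transferases that scaling called 0 between genotypes on DMSO and 7 on IBA, 7 higher and 0 lower, of which 2 were among the 3 called as deposited; it called 2 higher and 5 lower in Col-0, and 5 higher and 1 lower for the difference of responses. It moved the median of all probe sets by -0.441 in Col-0, 0.0971 in the mutant, 0.538 for the difference of responses, -0.134 on DMSO and 0.404 on IBA, and reversed the Col-0 changes of SAPX (-0.405) and ATMDAR2 (-0.358). The splits of higher and lower calls over all probe sets became 723 and 16287, 798 and 149, 11637 and 237, 114 and 93, and 13030 and 342 in that order. Median centring gave 2311 and 4356 in Col-0, 888 and 666 for the difference of responses, and 335 and 187 on DMSO, and gave GSTU25 0.563 in Col-0 and -0.0133 for the difference of responses.

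The count of transferases called in the mutant, 3 as reported, was 5 with array weights and 6 with the compared groups alone. The count for the difference of responses, 5, was 3 at adjusted p under 0.01. That between genotypes on DMSO, 3, was 5 with trend and robust settings and 0 at adjusted p under 0.01. With a replicate block the counts were 9, 3, 5, 3 and 3 over the 5 comparisons, but on DMSO GSTU28 (adjusted p = 0.0451) took the place of GSTU16 (adjusted p = 0.0508); same-numbered arrays share only a number. Leaving out 1 array gave counts of 9 to 10 in Col-0, 2 to 5 in the mutant, 5 to 6 for the difference, 0 to 4 on DMSO (0 without mutant DMSO replicate 1, and 1 without mutant DMSO replicate 2 or Col-0 DMSO replicate 1 or 3) and 3 to 4 on IBA. GSTU20 then ran from 0.562 to 0.762 in Col-0, -1.16 to -0.867 in the mutant, -1.84 to -1.55 for the difference, -0.374 to -0.196 on DMSO and -2.09 to -1.8 on IBA. GSTU25 ran from 0.607 to 0.645, 0.519 to 0.581, -0.111 to -0.0479, 0.376 to 0.439 and 0.313 to 0.348. Of 3577 other values over all alternatives 3450 kept direction and side of the threshold, 56 lost a call, 69 gained one and 2 reversed. The compared groups alone gave no value for the difference of responses, which needs all 4. The causes were not tested, and 3 arrays per group limit what can be seen.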

Other observations

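The detoxification genes outside the 4 with the smallest p, named here after their values were seen, went with GSTU25 in part. UGT76E12 changed by 0.58 in Col-0 and 0.51 in the mutant, ALDH7B4 by 0.66 and 0.42, AOR by 0.69 and 0.44, and GT72B1, a glucosyltransferase of chlorinated phenols, by 0.27 and 0.37, all 8 values passing the limma test. The group means of UGT76E12 were low, at 2.75 to 3.34. GT72B1 was also higher in the mutant on both media, by 0.32 on DMSO (adjusted p = 0.0212) and by 0.42 on IBA (adjusted p = 0.000746), as the levels of GSTU25 were. ALDH3F1 was the 1 gene of the list lower in the mutant on IBA, at -0.57 (adjusted p = 0.000923), and its IBA changes of 0.10 and -0.22 did not pass. UGT73C1 and UGT71C1 passed in none of the 5 comparisons.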
